A study of Mus musculus with 9 samples.

Results

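The integrated stress response (ISR) was examined in the liver through 35 genes named for their role: the eIF2 kinases, eIF2 and its regulators, factors and effectors linked to ATF4, enzymes of serine, asparagine and proline synthesis, and amino acid transporters. All 35 were found by symbol among the 33211 genes of the deposited table, and 34 had enough counts to be tested. RNA-seq had been performed on liver of C57BL/6 mice, which the methods of the study give as young wild-type males of C57BL6/J, fed a high-fat diet (HFD) kept in a freezer (HFDfre, n = 5 libraries) or in a fridge (HFDfri, n = 4 libraries) once its package had been opened. Both groups received the same purchased diet side by side, and neither carried a transgene or a further treatment. No group on a standard diet is part of the comparison, so a change shared by both HFDs is not seen. The labels do not say that each library came from a separate animal, and p-values measure the spread between these libraries. The comparison asks whether the storage of the diet altered the transcripts of the ISR.

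In the ISR, stress activates one of the kinases that phosphorylate eIF2, the factor that brings the initiator tRNA to the ribosome. Phosphorylated eIF2 blocks its exchange factor eIF2B, general translation slows, and a few mRNAs with upstream reading frames, among them Atf4, are translated more. ATF4 then binds the promoters of genes for amino acid synthesis, amino acid transport and feedback control, often at a composite element shared by C/EBP and ATF factors (CARE). These steps act largely on protein, so a gene count does not measure phosphorylated eIF2 or ATF4 protein.

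The HFDfre libraries held 60323908 to 68528457 counts each, and the HFDfri libraries 58614917 to 69353439. A ribosomal RNA-like locus, Gm26924, took 1.2% to 11.1% of the counts in HFDfre and 0.466% to 5.21% in HFDfri, and mitochondrial genes took 11.4% to 19.8% and 8.93% to 13.6%. Hepatocyte markers were abundant in every library, with a summed level between 76666 and 104509 CPM (counts scaled to a common library size). The marker lists of hepatocytes, Kupffer cells, stellate cells, bile duct, endothelium, lymphocytes, neutrophils and fat cells held 35 tested genes. Of these, 0 passed an edgeR adjusted p of 0.05, against 1.05% of all tested genes. An edgeR unadjusted p under 0.05 was found for 4 markers, against 21.2% of all tested genes. With DESeq2, 3 of the 26 markers with an adjusted p passed (11.5%, against 9.8% of all genes with one). In whole liver, fewer cells of a type and less RNA per cell cannot be told apart.

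The letters of the CARE element were looked for in the promoters of the members, because the element links these genes to ATF4. RefSeq promoters (GRCm38.p6, 250 bases before to 50 bases after a start) were matched for 32 of the 35 genes, and 9 of the 32 (28.1%) held TGATGNAA on either strand, against 4.51% of all genes in the promoter table. By promoter entry it was 24.3% of 37 entries of the members and 3.97% of all 32851 entries. The members were partly named as ATF4 targets, so the excess is a property of the choice. The windows below read 5′ to 3′ on the strand of the gene, with the match in capitals, and are shown because they include the gene with the adjusted call (Vldlr), the gene with the largest fold change (Asns) and a gene without any count (Slc7a11). A match is a run of letters and not a measured binding site.
Atf3, chr1:191183410-191183469, minus strand: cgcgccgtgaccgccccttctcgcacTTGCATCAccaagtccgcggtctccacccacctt
Chac1, chr2:119351023-119351082, plus strand: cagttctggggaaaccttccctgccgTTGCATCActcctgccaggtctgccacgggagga
Trib3, chr2:152344028-152344057, minus strand: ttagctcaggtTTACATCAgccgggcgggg
Vldlr, chr19:27216809-27216838, plus strand: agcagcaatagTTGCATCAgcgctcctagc
Asns, chr6:7693214-7693243, minus strand: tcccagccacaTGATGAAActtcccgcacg
Pycr1, chr11:120643818-120643877, minus strand: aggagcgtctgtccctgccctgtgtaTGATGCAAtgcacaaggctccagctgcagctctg
Slc7a11, chr3:50443646-50443705, minus strand: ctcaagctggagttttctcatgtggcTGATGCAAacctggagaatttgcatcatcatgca

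In Atf3, Chac1, Trib3 and Vldlr the match lies on the strand opposite to the gene. The windows of Trib3, Vldlr and Asns overlap an exon annotated in GENCODE M21 and were kept to 30 bases, and the other windows do not. The Vldlr match belongs to the second of 2 starts. Slc7a11 held the letters at 2 places, once on each strand, and Nupr1 and Pck2 were the other members with a match. The 8 tested genes with a match did not share a direction: 4 had a log2 fold change (HFDfri minus HFDfre, log2FC from here on) above 0 and 4 below it, with a median of -0.10.

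Few members differed between the groups. Only Vldlr passed an adjusted p of 0.05 with the quasi-likelihood test of edgeR, and it fell in HFDfri. Of all 14220 tested genes, 1.05% passed, 0.499% higher and 0.556% lower in HFDfri. An unadjusted p under 0.05 was found for 8 of the 34 tested members (23.5%), 4 with a higher and 4 with a lower mean in HFDfri, against 21.2% of all tested genes (11.4% higher and 9.79% lower), so the share among the members was near the background. The libraries of the groups did not overlap for 2 members (5.88%), both lower in HFDfri, against 7.69% of all tested genes (4.02% higher and 3.66% lower). The log2FC was above 0 for 23 members and below 0 for 11, with a median of 0.08, against 49.1% above 0 and a median of -0.01 over all tested genes. DESeq2 gave an adjusted p to 25 of the 34 members and to 10901 of all tested genes, and none to Asns, Atf3, Nupr1, Phgdh, Psat1, Mthfd2, Aldh18a1, Pycr1 and Slc7a5. Of the 25, 4 passed (16%), namely Vldlr, Eif2s1, Trib3 and Eif2ak3, against 9.8% of all genes with an adjusted p, or 7.51% of all tested genes.

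**Figure D1:**
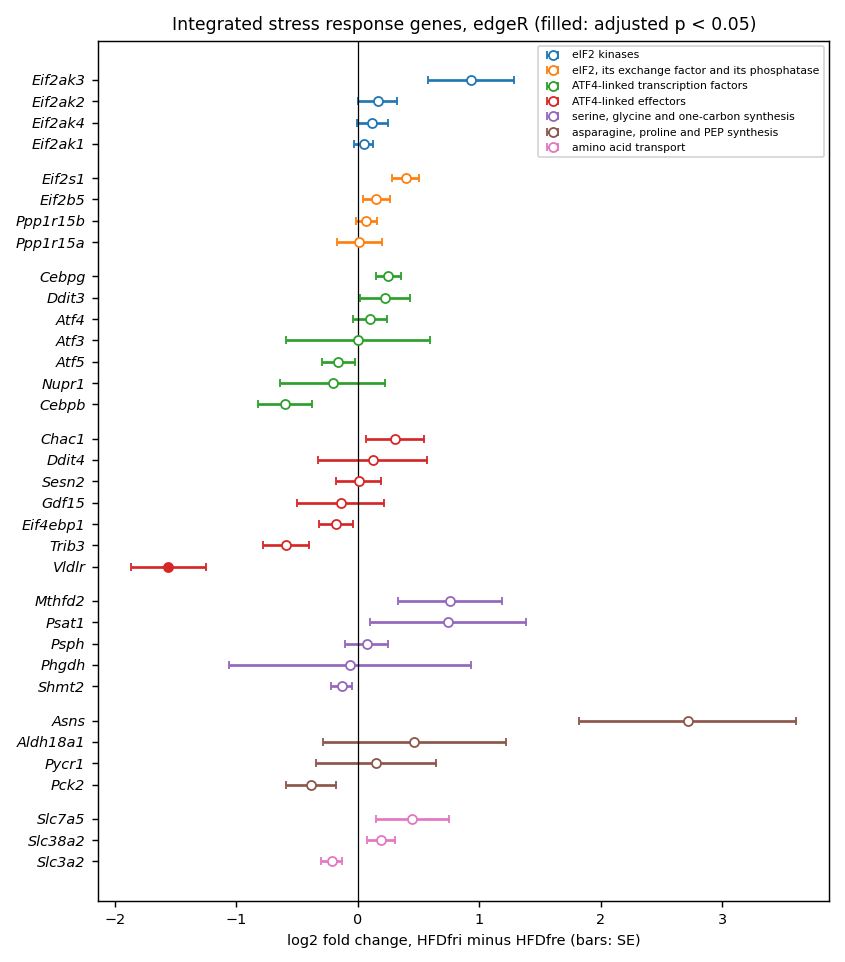
Log2 fold change (HFDfri minus HFDfre, x axis, error bars are SE) of the 34 tested genes, coloured by role. The filled point, Vldlr at -1.56, is the gene past an edgeR adjusted p of 0.05, and the longest bars belong to genes with few counts such as Phgdh, Asns and Aldh18a1.

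Among the 4 eIF2 kinases, Eif2ak3 (PERK, the kinase of the endoplasmic reticulum) stood at one level in 8 libraries and far above it in the ninth. Eif2ak3 (ENSMUSG00000031668, chromosome 6, 70844515 to 70905245) was at 5.14, 4.45, 5.28, 5.69 and 6.90 CPM in HFDfre 1 to 5 and at 7.18, 6.44, 22.4 and 5.89 CPM in HFDfri 1 to 4. HFDfri 3 alone was high, and HFDfri 2 and HFDfri 4 lay within the range of HFDfre. The fit gave a log2FC of 0.93 ± 0.35 (SE), and the adjusted p was 0.166 (edgeR) or 0.0498 (DESeq2). The log2FC was 0.24 without HFDfri 3, and 0.09 among the 5 libraries with a Gm26924 share under 3%, which do not include HFDfri 3. Eif2ak3 shares exon bases with Gm43292 on the opposite strand, and the use of strand in counting is not stated.

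The other kinases were nearly level. Eif2ak1 (HRI), which responds to lack of heme and to mitochondrial stress, was at 40.6, 39.0, 34.8, 38.1 and 38.6 CPM in HFDfre 1 to 5 and 41.5, 40.0, 39.5 and 37.1 CPM in HFDfri 1 to 4, a log2FC of 0.05 ± 0.08 (SE; edgeR adjusted p = 0.772). Eif2ak4 (GCN2), the sensor of uncharged tRNA, was at 5.60, 6.42, 4.99, 5.91 and 5.08 CPM in HFDfre 1 to 5 and 5.72, 6.80, 6.16 and 5.59 CPM in HFDfri 1 to 4, a log2FC of 0.12 ± 0.13 (edgeR adjusted p = 0.637). Eif2ak2 (PKR), which binds double-stranded RNA, was at 6.68, 9.13, 10.2, 6.49 and 6.65 CPM in HFDfre 1 to 5 and 8.94, 9.22, 9.41 and 7.44 CPM in HFDfri 1 to 4, a log2FC of 0.16 ± 0.16 (edgeR adjusted p = 0.597). The groups overlapped for each of these 3 genes, and no library was far from the rest. Per kilobase of exon, Eif2ak1 had the highest level of the 4 kinases, at 6.84 CPM per kb, against 1.61 for Eif2ak2, 1.28 for Eif2ak3 and 0.779 for Eif2ak4.

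The alpha subunit of eIF2, the substrate of these kinases, is encoded by Eif2s1 (ENSMUSG00000021116, chromosome 12, 78861819 to 78887010). It was at 20.5, 24.4, 22.9, 21.5 and 26.7 CPM in HFDfre 1 to 5 and at 29.0, 26.7, 35.4 and 30.8 CPM in HFDfri 1 to 4. The lowest HFDfri library, HFDfri 2, and the highest HFDfre library, HFDfre 5, met at 26.7 CPM, so the groups touched, and the other libraries were apart. The log2FC was 0.39 ± 0.11 (SE) and the adjusted p was 0.0917 (edgeR) or 0.0274 (DESeq2). The log2FC was 0.21 within the 5 libraries with a Gm26924 share under 3%. These leave out HFDfri 3, the highest in Eif2s1, and also HFDfre 1, HFDfre 2 and HFDfre 4. When each library was left out alone, the log2FC lay between 0.31 and 0.45. With the share as a covariate over all libraries it was 0.38. Eif2b5, the catalytic subunit of eIF2B, had a log2FC of 0.15 ± 0.11 (edgeR adjusted p = 0.450).

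The phosphatase that removes phosphate from eIF2 is targeted by Ppp1r15a (GADD34), which is induced by stress, and Ppp1r15b, which is always present. Ppp1r15a was at 6.95 to 10.8 CPM in HFDfre and 6.57 to 11.9 CPM in HFDfri, a log2FC of 0.01 ± 0.19 (SE; edgeR adjusted p = 0.980). Ppp1r15b was at 83.9, 70.2, 81.0, 82.5 and 80.6 CPM in HFDfre 1 to 5 and at 85.1, 75.2, 91.6 and 82.4 CPM in HFDfri 1 to 4. HFDfre 2 was low for its group, and the groups overlapped, with a log2FC of 0.07 ± 0.09 (edgeR adjusted p = 0.695). Per kb of exon, Ppp1r15b was at 14.5 CPM and Ppp1r15a at 3.06 CPM.

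**Figure D2:**
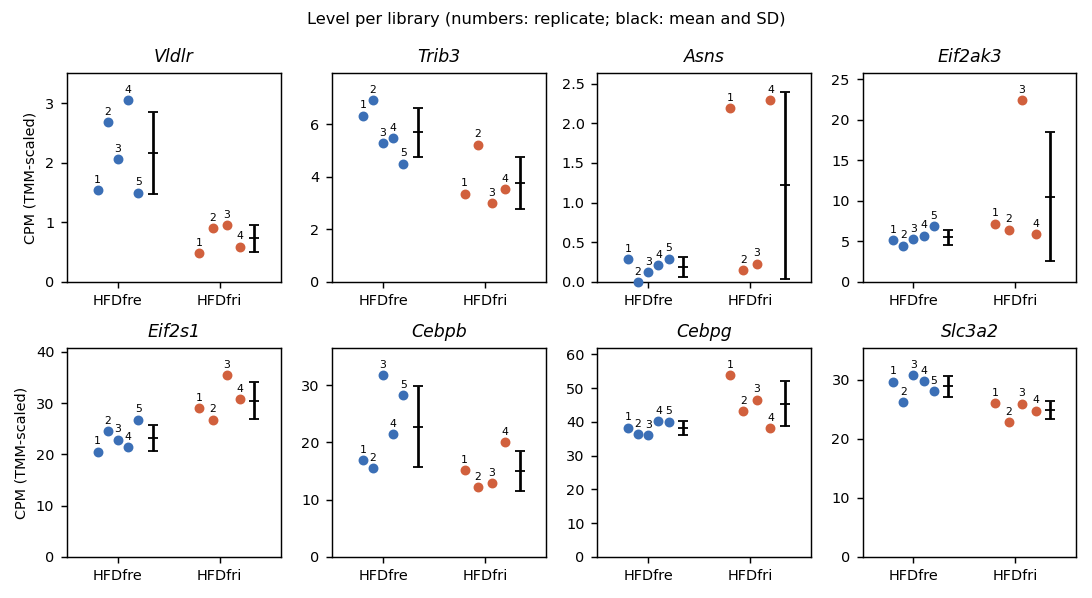
Level of 8 genes in CPM (y axis from 0) in each library of HFDfre and HFDfri, with the replicate number above each point and the mean and SD in black. Eif2ak3 is set apart by HFDfri 3 at 22.4 CPM, Asns by HFDfri 1 and HFDfri 4 at 2.19 and 2.29 CPM, and the groups do not overlap for Vldlr and Slc3a2.

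Transcription factors of the pathway showed no shared shift, and 0 of 7 passed the adjusted threshold with edgeR, against 1.05% of all tested genes. An edgeR unadjusted p under 0.05 was found for 2 of the 7 (28.6%, against 21.2% of all tested genes). With DESeq2, 0 passed of the 5 that had an adjusted p, which leaves out Atf3 and Nupr1. Atf4 (ENSMUSG00000042406, chromosome 15, 80255184 to 80257541), the central factor, was at 60.2, 51.2, 50.2, 60.5 and 52.8 CPM in HFDfre 1 to 5 and at 75.3, 46.8, 65.4 and 48.0 CPM in HFDfri 1 to 4. The HFDfri libraries lay on both sides of HFDfre, with HFDfri 1 and HFDfri 3 above and HFDfri 2 and HFDfri 4 below all of its libraries. Its log2FC was 0.10 ± 0.14 (SE; edgeR adjusted p = 0.736). Without HFDfri 1 it was -0.05.

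Cebpg, which encodes a partner of ATF4 on the CARE element, was at 38.3, 36.3, 36.1, 40.1 and 40.0 CPM in HFDfre 1 to 5 and at 53.8, 43.2, 46.6 and 38.1 CPM in HFDfri 1 to 4. All HFDfri libraries but HFDfri 4 were above HFDfre. The fit gave a log2FC of 0.25 ± 0.10 (SE; edgeR unadjusted p = 0.0293, adjusted p = 0.188). Cebpb, a factor of the acute phase and of liver metabolism as well as of the ISR, was at 16.9, 15.5, 31.7, 21.4 and 28.3 CPM in HFDfre and at 15.1, 12.2, 12.8 and 20.0 CPM in HFDfri. HFDfre 3 and HFDfre 5 were high, and the other libraries of the groups overlapped. Its log2FC was -0.60 ± 0.22 (edgeR unadjusted p = 0.0196, adjusted p = 0.162), and -0.93 within the libraries with a Gm26924 share under 3%, whose HFDfre libraries are these 2. Both genes share exon bases with another annotated gene, as do Eif2ak3, Atf5 and Ddit3, among 12 members in all.

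Atf5, a factor of the same response that is enriched in liver, was at 187.6, 165.8, 174.6, 184.2 and 153.2 CPM in HFDfre 1 to 5 and at 208.7, 132.1, 142.6 and 135.2 CPM in HFDfri 1 to 4. HFDfri 1 was the highest of all libraries and the other HFDfri libraries were the lowest. The log2FC was -0.16 ± 0.14 (SE; edgeR adjusted p = 0.532), and without HFDfri 1 it was -0.35 with an edgeR adjusted p of 0.0380. The fit without HFDfri 1 called 1106 of all genes, against 150 with all libraries. It was the only 1 of 20 alternative analyses in which Atf5 passed. Ddit3 (CHOP), a factor linked to cell death under lasting stress, was at 5.29 to 7.46 CPM in HFDfre and at 6.48, 4.83, 11.1 and 6.94 CPM in HFDfri 1 to 4. HFDfri 3, the library high in Eif2ak3, was also the highest in Ddit3, while HFDfri 1 and HFDfri 4 lay within the range of HFDfre and HFDfri 2 below it. Its log2FC was 0.22 ± 0.21 (edgeR adjusted p = 0.579). Without HFDfri 3 it was -0.05.

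Atf3, an early stress factor, and Nupr1, a small chromatin protein induced by stress, had few counts. Atf3 was at 0.982, 0.0779, 1.01, 1.22 and 0.784 CPM in HFDfre 1 to 5, where HFDfre 2 held 5 counts, and at 1.32, 0.691, 0.733 and 0.526 CPM in HFDfri 1 to 4. The log2FC values were 0.00 ± 0.59 (SE) for Atf3 and -0.21 ± 0.43 for Nupr1 (edgeR adjusted p = 0.9999 and 0.825).

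Vldlr, the receptor for very low density lipoprotein and a known target of ATF4 in liver, was the member that fell. Vldlr (ENSMUSG00000024924, chromosome 19, 27216484 to 27254231) was at 1.54, 2.68, 2.06, 3.05 and 1.497 CPM in HFDfre 1 to 5 and at 0.481, 0.899, 0.950 and 0.592 CPM in HFDfri 1 to 4. Every HFDfri library was below every HFDfre library. Vldlr averaged 2.17 ± 0.687 CPM (SD) over the 5 HFDfre libraries and 0.731 ± 0.230 CPM over the 4 HFDfri libraries, a log2FC of -1.56 ± 0.31 (SE) or 0.339 times the HFDfre level, with an edgeR adjusted p of 0.0396. The counts behind it were 80 to 217 in HFDfre and 27 to 70 in HFDfri.

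The size of the change in Vldlr was steadier than its call. The log2FC lay between -1.71 and -1.41 in 20 alternative analyses, of which 7 kept an adjusted p under 0.05. The adjusted p from edgeR was 0.0588, 0.0733, 0.0966, 0.0640 and 0.0705 without HFDfre 1 to 5, 0.0868 without HFDfri 3 and 0.0807 without HFDfri 4. It was 0.0280 without HFDfri 1 and 0.0431 without HFDfri 2. Within the 5 libraries with a Gm26924 share under 3% the log2FC was -1.44 (edgeR adjusted p = 0.408).

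Trib3, a pseudokinase that feeds back on ATF4 and on insulin signalling, was at 6.33, 6.91, 5.29, 5.49 and 4.51 CPM in HFDfre 1 to 5 and at 3.37, 5.23, 2.99 and 3.52 CPM in HFDfri 1 to 4. HFDfri 2 lay within the range of HFDfre and the other HFDfri libraries were below it. The log2FC was -0.59 ± 0.19 (SE), and the adjusted p was 0.118 (edgeR) or 0.0417 (DESeq2). The log2FC was -0.28 among the libraries with a Gm26924 share under 3%, which leave out HFDfri 3 and also HFDfre 1, HFDfre 2 and HFDfre 4. When each library was left out alone, the log2FC lay between -0.79 and -0.50. With the share as a covariate over all libraries it was -0.52. Without HFDfri 2 the edgeR adjusted p was 0.0493, in a fit that called 235 of all genes, against 150 with all libraries. That fit and DESeq2 were the 2 of 20 alternative analyses in which Trib3 passed. HFDfri 3, the highest library in Eif2ak3 and Ddit3, was the lowest in Trib3.

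The other effectors overlapped between the groups. Chac1, which degrades glutathione, had a log2FC of 0.31 ± 0.24 (SE; edgeR adjusted p = 0.490) and Ddit4 (REDD1), an inhibitor of mTORC1, had 0.12 ± 0.45 (edgeR adjusted p = 0.907). Sesn2, a leucine sensor upstream of mTORC1, had 0.01 ± 0.19 (edgeR adjusted p = 0.991), and Eif4ebp1, the repressor of cap-dependent translation, had -0.18 ± 0.14 (edgeR adjusted p = 0.486). Gdf15, a secreted hormone of stress that acts on appetite, had -0.14 ± 0.36 (edgeR adjusted p = 0.859). Ddit4 ranged most widely, from 2.35 to 16.2 CPM within HFDfre alone. In Gdf15, HFDfri 1 was at 7.42 CPM and the other HFDfri libraries were at 2.53 to 3.24 CPM.

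Asns (asparagine synthetase), which makes asparagine and is a classic target of ATF4, had the largest fold change of the members. Asns (ENSMUSG00000029752, chromosome 6, 7675169 to 7693254) was at 0.289, 0, 0.122, 0.211 and 0.294 CPM in HFDfre 1 to 5 and at 2.19, 0.152, 0.231 and 2.29 CPM in HFDfri 1 to 4. HFDfri 1 and HFDfri 4 stood above all other libraries, and HFDfri 2 and HFDfri 3 lay within the range of HFDfre. The estimated counts were 123 and 139 in the high pair and at most 21 in the other libraries. Its log2FC was 2.71 ± 0.89 (SE; edgeR unadjusted p = 0.0104, adjusted p = 0.124). It was 2.26 without HFDfri 1 and 2.21 without HFDfri 4.

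In the serine pathway, 0 of 5 members had an edgeR unadjusted p under 0.05, against 21.2% of all tested genes. The adjusted threshold was passed by 0 with edgeR, against 1.05% of all tested genes. DESeq2 gave an adjusted p only to Psph and Shmt2, and neither passed. Phgdh, the first enzyme from glycolysis to serine, was at 0 to 0.366 CPM in HFDfre and 0 to 0.427 CPM in HFDfri (log2FC -0.07 ± 0.999 SE, edgeR adjusted p = 0.978). Psat1, the next enzyme, was at 0.168 to 0.379 CPM in HFDfre and at 1.14, 0.194, 0.0815 and 0.526 CPM in HFDfri 1 to 4. HFDfri 1 and HFDfri 4, the libraries high in Asns, were also the highest in Psat1, while HFDfri 2 lay within the range of HFDfre and HFDfri 3 below it. The log2FC of Psat1 was 0.74 ± 0.64 (SE; edgeR adjusted p = 0.545). Without HFDfri 1 it was -0.12.

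Psph, which completes serine synthesis, had a log2FC of 0.07 ± 0.17 (SE; edgeR adjusted p = 0.854). Shmt2, the mitochondrial enzyme that splits serine to glycine and a one-carbon unit, was abundant, at 195.9 to 232.2 CPM in HFDfre and 171.3 to 200.2 CPM in HFDfri, with a log2FC of -0.13 ± 0.09 (edgeR adjusted p = 0.419). Mthfd2, its partner in the mitochondrial folate pathway, was at 0.291 to 0.924 and 0.444 to 1.37 CPM, with 0.76 ± 0.43 (edgeR adjusted p = 0.339). Per kb of exon, Shmt2 was at 64.3 CPM and Mthfd2 at 0.184 CPM.

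For proline, Aldh18a1, which acts at the beginning of its synthesis, was at 0, 0.420, 0.489, 0.225 and 0.210 CPM in HFDfre 1 to 5 and 0.463, 0.180, 0.190 and 0.675 CPM in HFDfri 1 to 4. HFDfre 1 was at 0 and the groups overlapped (log2FC 0.46 ± 0.76 SE, edgeR adjusted p = 0.769). Pycr1, which completes the synthesis, was at most 0.448 CPM in any library (log2FC 0.15 ± 0.49 SE, edgeR adjusted p = 0.897). Pck2, the mitochondrial enzyme that makes phosphoenolpyruvate, was at 5.04, 2.62, 3.23, 3.78 and 4.06 CPM in HFDfre 1 to 5 and at 2.96, 3.001, 2.19 and 3.32 CPM in HFDfri 1 to 4. The groups overlapped, with a log2FC of -0.39 ± 0.21 (edgeR adjusted p = 0.311).

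Of the transporters, Slc3a2 (CD98 heavy chain), the shared subunit of several amino acid exchangers, was at 29.7, 26.3, 30.8, 29.8 and 28.1 CPM in HFDfre 1 to 5 and at 26.1, 22.8, 25.97 and 24.8 CPM in HFDfri 1 to 4. The groups did not overlap, and the gap between HFDfre 2 and HFDfri 1 was narrow. The fit gave a log2FC of -0.22 ± 0.09 (SE; edgeR unadjusted p = 0.0263, adjusted p = 0.181). Its light chain Slc7a5 (LAT1), an importer of large neutral amino acids, was at 0.520 to 0.918 and 0.623 to 1.40 CPM (log2FC 0.45 ± 0.30, edgeR adjusted p = 0.425). Slc38a2 (SNAT2), an importer of small neutral amino acids, was at 82.2 to 107.1 and 90.7 to 129.5 CPM (log2FC 0.19 ± 0.12, edgeR adjusted p = 0.372). Slc7a11 (xCT), the cystine importer that pairs with Slc3a2, had 0 counts in all 9 libraries, which allows at most 0.0407 to 0.0578 CPM at 3 counts per library, a limit that covers counting error only. If 1 read were worth 4 units, as the low values of the table allow, the limit would be 0.163 to 0.231 CPM.

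**Figure D3:**
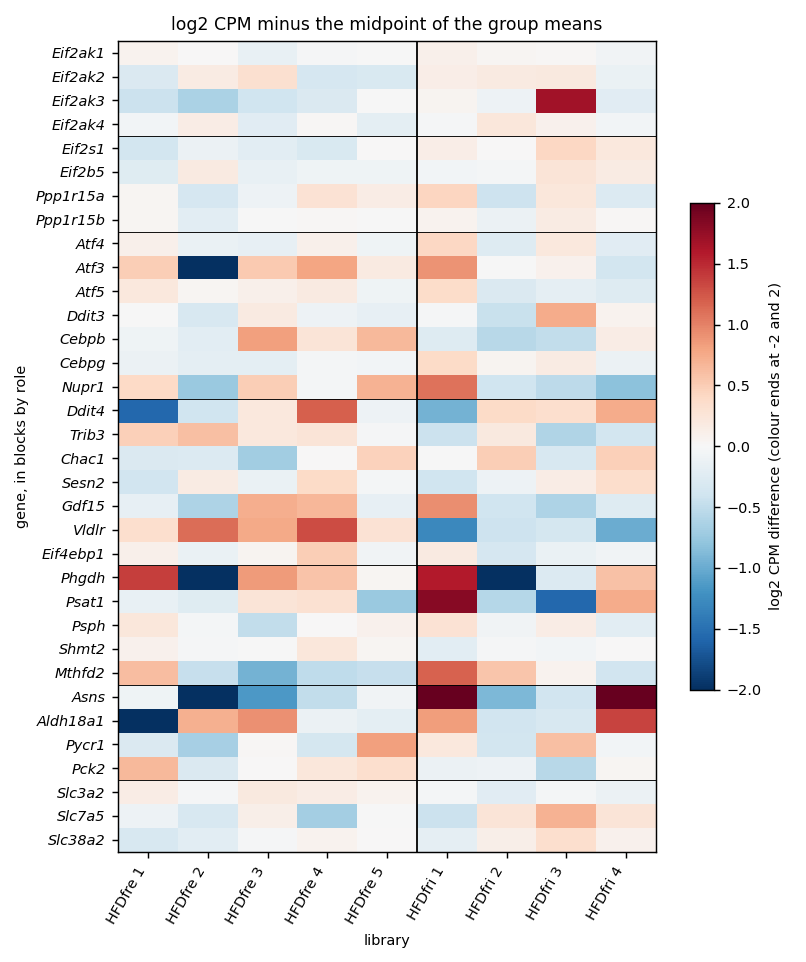
Log2 CPM of the 34 tested genes (rows, in blocks by role) in each library (columns), as the difference from the midpoint of the group means, with colours ending at -2 and 2. Among the strong colours are HFDfri 3 for Eif2ak3 and HFDfri 1 and HFDfri 4 for Asns, and Vldlr is the row with opposite colours in all libraries of the groups at this scale.

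HFDfri 1 held the highest value of 12 of the 34 tested members (35.3%), against 15.6% of all tested genes. These were Atf4, Atf5, Atf3, Cebpg, Nupr1, Gdf15, Ppp1r15a, Eif2ak1, Phgdh, Psat1, Psph and Mthfd2. HFDfri 3 held the highest value of 7 members (20.6%), a share near the 17.3% of all tested genes, and these were Eif2ak3, Eif2s1, Eif2b5, Ddit3, Ppp1r15b, Slc7a5 and Slc38a2. HFDfri 2 held the lowest value of 7 members (20.6%, against 11.4% of all tested genes), and HFDfre 2 and HFDfre 3 of 6 each (17.6%, against 7.6% and 10.9%). The other libraries held the lowest value of 0 to 5 members. The median SD of log2 CPM was 0.28 among the members in HFDfre and 0.34 in HFDfri, against 0.21 and 0.27 over all tested genes, and the members include many genes with low counts. Gm26924 took 0.931% of the counts in HFDfri 1, 5.21% in HFDfri 3 and 0.466% in HFDfri 2, and its part in these patterns was not tested.

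Levels per length spanned a wide range. Atf5 was the most abundant member, at 86.8 CPM per kb of exon in HFDfre and 77.6 in HFDfri, followed by Shmt2 at 66.9 and 61.0 and Atf4 at 23.3 and 24.96. Within each group, every library of Atf5 lay above every library of Shmt2 on this scale, and only across the groups did they overlap. The libraries of Atf4 lay below both. The order of the next genes differed between the groups, with Cebpb at 15.1 CPM per kb, Eif4ebp1 at 14.8 and Ppp1r15b at 14.2 in HFDfre, and Ppp1r15b at 14.9, Eif4ebp1 at 13.1, Slc38a2 at 12.4 and Eif2b5 at 10.2 in HFDfri, above Cebpb. The libraries of Cebpb, Eif4ebp1 and Ppp1r15b overlapped on this scale, except that in HFDfri those of Cebpb lay below those of Ppp1r15b. At the other end, Pycr1, Phgdh, Aldh18a1 and Psat1 were at 0.0645, 0.0739, 0.0778 and 0.0881 CPM per kb, an order that their libraries do not resolve. Fewer than 150 counts in every library were found for 10 members, among them Asns and 3 of the 5 genes of the serine and one-carbon group, so these comparisons rest on little depth.

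**Figure D4:**
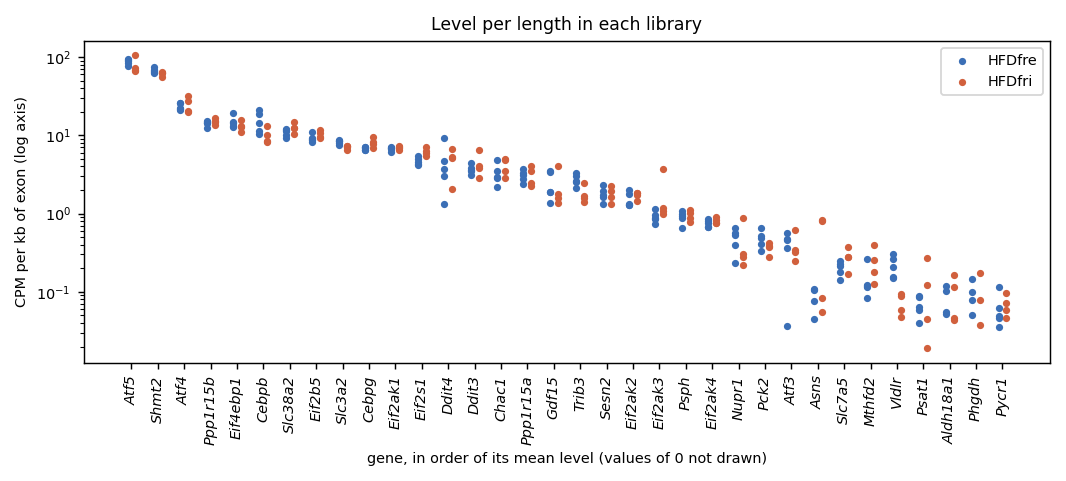
Level per length (CPM per kb of exon, log axis) of each gene in each library, ordered by the mean, with HFDfre in blue and HFDfri in orange. Atf5, Shmt2 and Atf4 lead, the libraries of the groups overlap for most genes, and Vldlr is the low gene whose libraries separate.

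A further 71 genes of the pathway that are not members were listed. Of these, 70 were found in the deposited table, and Cebpd was not. They were other subunits of eIF2 and eIF2B with Eif2a, regulators of the kinases with Crebrf, further ATF4 partners and targets, and further enzymes and transporters. Of the 68 tested, 38 (55.9%) had a log2FC above 0 and 30 below it, with a median of 0.06. Over all tested genes, 49.1% were above 0 and the median was -0.01. The groups did not overlap for 2 of the 68 (2.94%), both lower in HFDfri, against 7.69% of all tested genes. The edgeR adjusted threshold was passed by 0 genes, 12 (17.6%, against 21.2% of all tested genes) had an unadjusted p under 0.05, and 4 of the 57 with a DESeq2 adjusted p passed with DESeq2 (7.02%, against 9.8% of all genes with one). The group of eIF2 and eIF2B subunits, which also counts Eif2a (log2FC 0.07), a separate initiation factor, had the most one-sided values. It had 6 of 7 above 0 and a median of 0.19. The group of kinase regulators, which also counts Crebrf (log2FC -0.11), not known as one, had 5 of 7 above 0 and a median of 0.21. The further ATF4 partners and targets had 12 above 0 and 11 below it, with a median of 0.02. The transporters had 6 above 0 and 7 below it, and the enzymes 9 and 9. An edgeR unadjusted p under 0.05 was found for 8 of the 23 ATF4 partners and targets (34.8%), 5 higher and 3 lower in HFDfri. This group includes transcription factors such as Nfe2l2 and Cebpa, so the share is not that of ATF4 targets alone. It was found for 2 genes of the subunit group and 2 of the kinase regulator group (28.6% each), and for 0 enzymes and 0 transporters.

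The 6 genes with the smallest p in this wider list included neither an enzyme of amino acid synthesis nor a transporter. Nfe2l2 (NRF2), the factor of the antioxidant response and a PERK substrate, was at 66.7 ± 9.46 CPM (SD) over the 5 HFDfre libraries and 49.9 ± 0.600 CPM over the 4 HFDfri libraries, a log2FC of -0.42 ± 0.10 (SE; adjusted p = 0.0701 in edgeR and 0.00880 in DESeq2). Dnajc3 (p58IPK), a chaperone of the endoplasmic reticulum that also inhibits eIF2 kinases, was at 130.7 ± 16.6 and 188.7 ± 38.7 CPM, a log2FC of 0.53 ± 0.14 (adjusted p = 0.0832 in edgeR and 0.0114 in DESeq2). Eif2s3x, the gamma subunit of eIF2, was at 29.9 ± 3.15 and 41.8 ± 9.43 CPM, a log2FC of 0.49 ± 0.15 (adjusted p = 0.107 in edgeR and 0.0328 in DESeq2). The groups did not overlap for Nfe2l2, whose HFDfri libraries were all between 49.3 and 50.7 CPM, while HFDfri 2 and HFDfri 4 were near HFDfre for Dnajc3 and HFDfri 1 was within it for Eif2s3x. Atg7, needed for autophagy, was lower in every HFDfri library than in any HFDfre library. Its log2FC was -0.27 ± 0.08 (SE; adjusted p = 0.0981 in edgeR and 0.0310 in DESeq2). Eif2b4, the delta subunit of eIF2B, and Klhl24 had 0.35 ± 0.11 and 0.56 ± 0.20 (edgeR adjusted p = 0.125 and 0.147).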

How the data were processed

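Liver RNA was extracted with TRIzol and sequenced as paired-end Illumina reads. The library kit is named differently in the labels (NEBNext Ultra) and in the methods of the study (KAPA RNA HyperPrep). Reads were aligned with HISAT2, and the submitters' processing notes also name StringTie and mm10; versions, annotation and use of strand are not given in the sources used here. The authors quantified each gene from these alignments and deposited whole numbers, read here as an estimated count with no scaling between libraries. Low values gather at multiples of 4 (3990 values equal 4, 2172 equal 3 and 1840 equal 5), so 1 unit need not be 1 read and low genes may rest on fewer reads than their counts.

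The 14220 genes kept by filterByExpr entered edgeR 4.0.16 (quasi-likelihood fit and test, R 4.3.3) with TMM scaling and Benjamini-Hochberg adjustment over all of them; SE is the log2 fold change divided by the square root of F. CPM uses TMM-scaled totals and log2 CPM a prior count of 2. DESeq2 1.42.0, limma-voom (3.58.1), other scalings and filters, values divided by 4, a Gm26924 covariate, the replicate block and leaving out libraries were alternatives. Scripts were tested on simulated data. Coordinates and exon lengths (union of all exons) come from GENCODE M21 (GRCm38), which holds 96.3% of the identifiers. The labels do not state that their numbers pair libraries. Libraries of the same number showed no shared deviation, with correlations of deviations from -0.136 to 0.0813, which cannot exclude a pairing. Every member was accounted for; members with an unadjusted p under 0.05, no overlap or a library far from its group, Atf4 and the eIF2 kinases were given by library, as were parts of Ddit3, Psat1, Pck2 and Gdf15, chosen after their values were seen. The members and lists were chosen with earlier results of these data known.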

Additional observations from a re-analysis of the deposited data

Results flagged for a closer look

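In each of the 34 tested members, both groups were examined for 1 library standing far from its group, which made 68 sets of values. The gap to the nearest library was a large part of the range in 5 of them, against 3.4 given by chance at 1 in 20, and no cause was tested. On the log2 CPM scale, HFDfri 3 had 4.48 for Eif2ak3 against 2.57 to 2.85 in the rest of HFDfri, and the gap was 0.852 of the range. HFDfri 1 had 7.71 for Atf5 against 7.05 to 7.16 in the rest of HFDfri (0.833). In HFDfre, Atf3 was at -3.20 in HFDfre 2 and -0.30 to 0.32 in the others (0.824), Ppp1r15b was at 6.13 in HFDfre 2 and 6.33 to 6.39 in the others (0.779), and Aldh18a1 was at -5.03 in HFDfre 1, where it had 0 counts, and -2.06 to -0.94 in the others (0.728).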

How the results depend on the processing

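The count of genes past the adjusted threshold, 150 over all genes, was 76 with library totals, 1068 with DESeq2, 72 with no filter, 38 with the Gm26924 share as a covariate and 2 within the 5 libraries with a Gm26924 share under 3%, and 6 to 1106 when each library was left out (39, 51, 6, 46 and 6 without HFDfre 1 to 5, and 1106, 235, 10 and 26 without HFDfri 1 to 4). With the replicate block, a pairing that the labels do not state, it was 0, with 2536 at an unadjusted p under 0.05. The 1 member past the threshold became 4 with DESeq2 (of 25 with an adjusted p) and 0 with library totals, limma-voom, no filter, the covariate, the replicate block and the libraries under 3%, and 0 to 2 when each library was left out (2 without HFDfri 1, Atf5 and Vldlr, and 2 without HFDfri 2, Trib3 and Vldlr). The members at an unadjusted p under 0.05, 8, were 5 with the covariate, 3 of 34 within the libraries under 3% (9.67% of all genes there) and 5 to 10 when each library was left out. The wider list had 4 genes past the threshold with DESeq2 and 0 to 4 when each library was left out (4 without HFDfri 1). Across the fits that left out a library, 18 to 24 members were above 0, with a median of 0.03 to 0.13. Library totals moved the median of all genes from -0.01 to 0.05 and the members' median from 0.08 to 0.14. Stricter filters left out 6 members (at least 10 counts) and 5 members (values divided by 4).

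Directions turned in the members below, all of them short of the adjusted threshold, and the cause was not tested. Sesn2 was -0.0061 with limma-voom, -0.0054 with no filter, -0.0062 with at least 10 counts, -0.0052 with values divided by 4 and -0.0059 with the replicate block. Ppp1r15a was -0.028 with limma-voom, -0.0042 with values divided by 4 and -0.067 within the libraries under 3%. Atf3 was -0.0095 with no filter, -0.036 with values divided by 4, -0.11 with the covariate and -0.093 within the libraries under 3%. With the covariate Aldh18a1 was -0.026, Ddit4 -0.073 and Phgdh 0.033. Within the libraries under 3%, Ddit3 was -0.14, Phgdh 0.15, Ppp1r15b -0.0036 and Pycr1 -0.59. When each library was left out, the log2 fold change ran from -0.12 to 0.58 for Ddit4, -0.94 to 0.36 for Phgdh, -0.12 to 0.11 for Sesn2, -0.33 to 0.19 for Atf3, -0.16 to 0.14 for Ppp1r15a, -0.069 to 0.50 for Pycr1, -0.62 to 0.032 for Gdf15, -0.033 to 0.15 for Psph, -0.054 to 0.19 for Atf4, -0.12 to 1.10 for Psat1 and -0.049 to 0.38 for Ddit3.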
